A study of Mus musculus with 15 samples.

Results

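Morphine was compared with saline in the right hippocampus of mouse pups, as the mean of the difference under mild stress and the difference under severe stress. The arrays were chosen by their treatment label alone: 6 arrays of pups that received morphine and 6 of pups that received saline vehicle, which make up 12 of the 15 arrays of the study. All pups were male C57BL/6 mice sampled on postnatal day 9, with birth counted as day 1, and litters were reduced to at most 7 pups per dam. Treatment ran from day 5 to day 9. Under mild stress 3 pups had saline (MSS) and 3 had morphine (MSM). Under severe stress 3 had saline (SSS) and 3 had morphine (SSM). The 3 untreated pups (CC), which were given neither stress nor an agent per their label, were no part of the comparison but entered the fit as a further group. All 12 stressed pups carried a stress as well as an agent, so morphine was not measured here without stress. The sources used here do not give the morphine dose, the nature of each stress, the litter of a pup or the hour at which tissue was taken. The p-values therefore measure the spread between these arrays. The titles carry further numbers, whose meaning is not given. The number after the letters SS is 11 on all the mild stress arrays. Under severe stress it is 8 on SSM replicate 1 and SSS replicate 3. It is 9 on the other SSM arrays and 10 on the other SSS arrays. Apart from the pair with number 8, morphine and the SS number cannot be told apart under severe stress. Under mild stress the number after the letter H is lower on every morphine array than on every saline array. Morphine and the order of that number cannot be told apart there.

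Morphine acts through the mu opioid receptor, a receptor coupled to inhibitory G proteins that lowers the firing and transmitter release of the neurons that carry it. In the hippocampus that receptor sits mainly on inhibitory interneurons, so that opioids relieve the principal cells of inhibition. The hippocampus also holds a circadian clock, in which CLOCK and BMAL1 (the product of Arntl) drive the period, cryptochrome, Nr1d and Dbp genes, and the proteins of these genes in turn act back on the loop. The level of these transcripts depends on the time of day.

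Values are log2 intensities on Affymetrix Mouse Gene 1.0 ST arrays, made with RMA, and a difference is morphine minus saline on the log2 scale with its standard error (SE). A gene was called when its p-value from limma, adjusted over all 19938 genes by Benjamini-Hochberg, was under 0.05. Pairs of arrays correlated at 0.99 to 0.998 across genes. Markers of hippocampal neurons (Prox1, Neurod2, Fibcd1, Wfs1 and Neurod6) had a mean level of 8.38 to 8.74 on 13 arrays, 7.99 on SSM replicate 1 and 7.59 on MSM replicate 3. These last arrays were also those with the highest levels of striatum and of thalamus markers, respectively. The choroid plexus markers had a mean level of 5.70 and 5.53 on MSS replicates 1 and 2 and 5.48 on SSS replicate 2, against 6.46 to 7.51 on the remaining arrays. The array median was 6.22 to 6.27 on 14 arrays and 6.39 on SSM replicate 3. In a bulk sample, fewer cells of a type and less RNA per cell cannot be told apart.

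No gene passed the threshold in the averaged comparison (0 of 19938 genes, 0%, limma). The smallest adjusted p was 0.548, for Dbp, and the next, 0.649, was shared by 1890 genes. At an unadjusted p under 0.05 there were 1523 genes (7.64%), of which 1404 (7.04%) were higher and 119 (0.597%) were lower with morphine. The same comparison within mild stress gave 0 genes past the threshold and 513 (2.57%) at an unadjusted p under 0.05, 316 of them (1.58%) higher and 197 (0.988%) lower. Within severe stress it gave 0 and 1868 (9.37%), with 1736 (8.71%) higher and 132 (0.662%) lower. The difference was above 0 in 50.1% of genes under mild and 74% under severe stress. Without MSM replicate 1, which leaves MSM replicates 2 and 3, Rorb passed the threshold within mild stress (0.99, SE 0.11, adjusted p 0.00711, limma). It was the sole gene to do so in any of the alternatives run within a stress level. The median SE of an averaged difference was 0.057.

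The excess of higher values depended on the scale between arrays. The median difference of all genes was 0.027 averaged, 0.00012 under mild and 0.056 under severe stress, and 13413 genes (67.3%) had a difference above 0. After quantile normalization of the deposited values the median was -0.0027, with 644 genes (3.23%) higher and 783 (3.93%) lower at an unadjusted p under 0.05. After centring each array on its median it was -0.015, with 443 higher and 937 lower. SSM replicate 3 lay above the mean of the remaining 14 arrays by a median of 0.21 in the dimmest of 4 equal classes of genes, by 0.16 and 0.14 in the middle classes and by 0.13 in the brightest. Without that array the median difference was -0.00086 and the counts were 983 higher and 585 lower. The count of higher genes was 856 without SSS replicate 2 and 2285 without SSM replicate 2. The count of lower genes was 46 without SSM replicate 1, 61 without MSM replicate 3, 70 without SSS replicate 2, 181 without SSM replicate 2, 205 without MSM replicate 2 and 277 without MSM replicate 1.

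**Figure D1:**
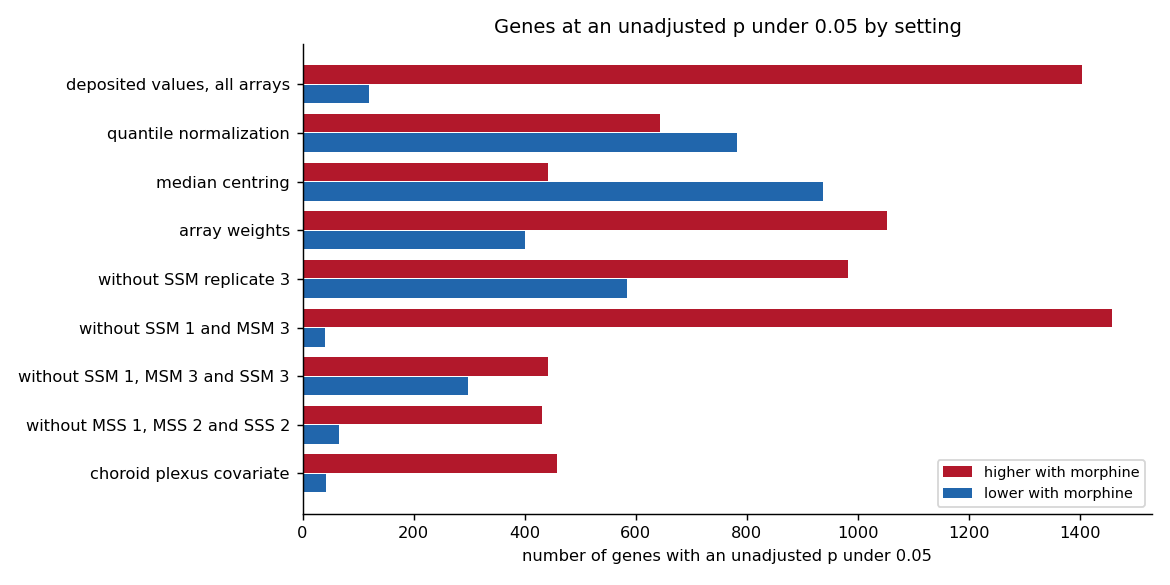
Number of genes with an unadjusted p under 0.05 (limma) that were higher (red) or lower (blue) with morphine, averaged over both stress levels, under 9 settings. The deposited values give 1404 higher and 119 lower, and quantile normalization gives 644 and 783.

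Dbp, the clock-controlled PAR bZIP transcription factor of the albumin D-box, had the smallest p of all genes on the deposited values with all arrays. Its log2 level was 7.74, 7.80 and 7.87 in MSS and 8.19, 8.12 and 7.94 in MSM. It was 8.08, 8.01 and 8.08 in SSS and 8.78, 8.46 and 8.41 in SSM. The 3 morphine arrays lay above the 3 saline arrays at each stress level, and SSM replicate 1 was the highest of all. The untreated pups, at 8.06, 8.16 and 7.98, overlapped MSM and SSS and lay between MSS and SSM. The averaged difference was 0.39 (SE 0.065), a 1.31-fold higher level, with an adjusted p of 0.548 (limma). It was 0.28 (SE 0.091) under mild and 0.49 (SE 0.091) under severe stress, and the test of the difference between these values gave an unadjusted p of 0.123. The severe stress arrays that share the number 8 in their titles, SSM replicate 1 and SSS replicate 3, stood at 8.78 and 8.08. Leaving out each array in turn gave 0.33 to 0.42 with an adjusted p of 0.214 to 0.905. Its difference was 0.33 with the choroid plexus markers as a covariate, and the adjusted p was then 1. Of the 25 alternatives, 0 brought Dbp past the threshold. The nearest were array weights (adjusted p 0.0511) and leaving out SSM replicate 1 and MSM replicate 3 (adjusted p 0.0552). Its first rank did not hold in all alternatives. After quantile normalization, with or without the choroid plexus covariate, and after median centring the smallest p was that of Mir697. It was that of Rorb without MSM replicate 1 and of Commd1 without MSM replicate 2. Without SSM replicate 2 it was that of Zswim7, and without SSS replicate 3 that of Gh. Nor did Dbp rank first without MSS replicates 1 and 2 and SSS replicate 2 together.

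Dbp and Cry1 had the smallest unadjusted p (limma) of the clock genes that the table of promoters lists, and differ in the clock's own binding sequence near the start site. The promoter of each is shown from 250 bases before to 50 bases after the RefSeq start, on the gene's strand, in assembly GRCm38.p6, and capitals mark the E-box CACGTG, the sequence that CLOCK and BMAL1 are known to bind. Dbp lies at chr7:45704997-45705296 (plus strand) and Cry1 at chr10:85185005-85185304 (minus strand).
Dbp: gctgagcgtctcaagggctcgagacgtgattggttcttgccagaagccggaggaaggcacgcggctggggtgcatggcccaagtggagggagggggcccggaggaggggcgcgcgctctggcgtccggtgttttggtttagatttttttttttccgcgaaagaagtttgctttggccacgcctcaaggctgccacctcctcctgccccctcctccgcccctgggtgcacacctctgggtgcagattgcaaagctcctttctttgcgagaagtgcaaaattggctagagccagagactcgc
Cry1: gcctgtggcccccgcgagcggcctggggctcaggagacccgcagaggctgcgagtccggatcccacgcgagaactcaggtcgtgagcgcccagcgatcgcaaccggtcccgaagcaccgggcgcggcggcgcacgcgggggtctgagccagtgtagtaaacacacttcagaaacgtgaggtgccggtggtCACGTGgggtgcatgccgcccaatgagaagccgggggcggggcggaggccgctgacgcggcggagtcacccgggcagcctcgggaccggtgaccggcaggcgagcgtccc
The Cry1 window holds 1 CACGTG, 60 bases before the start, and the Dbp window holds none. Only this exact sequence within these windows was searched, so variant E-boxes and sites elsewhere in or near either gene were not counted. CACGTG reads the same on both strands. Of the 17 measured clock genes that the table matched, 5 (29.4%) held it in at least 1 promoter: Cry1, Bhlhe41, Ciart, Per1 and Tef. The share among all 27025 genes with a promoter was 8.09%. The 5 genes with the motif and the 12 without both included genes with an unadjusted p under 0.05.

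Of the 20 measured clock genes, 16 had a higher mean with morphine, 6 of them at an unadjusted p under 0.05, and 0 passed the threshold, against 67.3% and 7.04% of all genes. The median of the list was 0.078, against 0.027 for all genes. It was 0.038 after quantile normalization and 0.035 after median centring, each with 13 of 20 higher. Without SSM replicate 1 and MSM replicate 3 it was 0.065, with 19 of 20 higher. Of the 20 genes, 7 were highest on SSM replicate 1 and 4 on MSM replicate 3. Cry1, a cryptochrome that represses CLOCK and BMAL1, was 6.26, 6.36 and 6.77 in MSS and 6.64, 6.93 and 7.04 in MSM. It was 6.54, 6.49 and 6.44 in SSS and 7.02, 6.46 and 6.71 in SSM. Its groups overlapped at both stress levels, and the averaged difference was 0.32 (SE 0.10, adjusted p 0.649). Nr1d1 and Nr1d2, the nuclear receptors REV-ERB alpha and beta that repress Arntl, were higher by 0.14 (SE 0.056) and 0.16 (SE 0.059). For Nr1d1 the 3 saline arrays were 8.31, 8.19 and 8.31 under mild stress, with 8.36, 8.62 and 8.28 under morphine, and MSM replicate 3 alone lay below the highest saline value. Bhlhe41, a further repressor of the loop, was higher by 0.16 (SE 0.062), and all its SSM arrays (6.52, 6.44 and 6.50) lay above the SSS arrays (6.28, 6.34 and 6.26), a separation that was lost after quantile normalization and after median centring. Its relative Bhlhe40 was lower by 0.13 in size (-0.13, SE 0.078). The remaining PAR bZIP genes, Tef at 0.08 (SE 0.061) and Hlf at 0.083 (SE 0.069), differed by far less than Dbp.

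The ROR receptors, which activate Arntl, had large differences that came from few arrays. Rorb was 6.67, 6.63 and 6.74 in MSS and 6.69, 7.62 and 7.71 in MSM, and 7.02, 6.50 and 6.79 in SSS against 6.79 on each SSM array. Its difference was 0.66 under mild and 0.017 under severe stress (0.34 averaged, SE 0.14). MSM replicate 1 lay with the saline arrays, and without it the mild difference was 0.99 (SE 0.11, adjusted p 0.00711). Rora, at 0.49 (SE 0.26), was 8.45 on MSM replicate 3 and 6.13 to 6.83 on the other 11 arrays of the comparison. Rora is also a thalamus marker, and the thalamus markers had a mean level of 7.92 on that array against 6.43 to 6.81 elsewhere. Its difference without SSM replicate 1 and MSM replicate 3 was 0.10. The part of thalamic tissue in this result was not tested.

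Arntl itself had differences of opposite sign at the stress levels. It was 7.74, 7.65 and 7.63 in MSS and 7.54, 7.55 and 7.51 in MSM, so that all morphine arrays lay below all saline arrays. It was 7.35, 7.51 and 7.49 in SSS and 7.59, 7.57 and 7.66 in SSM, so that all lay above. The separation under mild stress held after quantile normalization and after median centring, and that under severe stress held after neither. The differences were -0.14 (SE 0.056) and 0.16 (SE 0.056), and the averaged value was 0.0067 (SE 0.040). Opposite separation of this kind, lower under mild and higher under severe stress, was found in 48 genes (0.241%), and the reverse in 4 (0.0201%). Within mild stress alone 3.87% of genes were separate toward higher and 3.48% toward lower values, and within severe stress 11.7% and 1.15%.

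**Figure D2:**
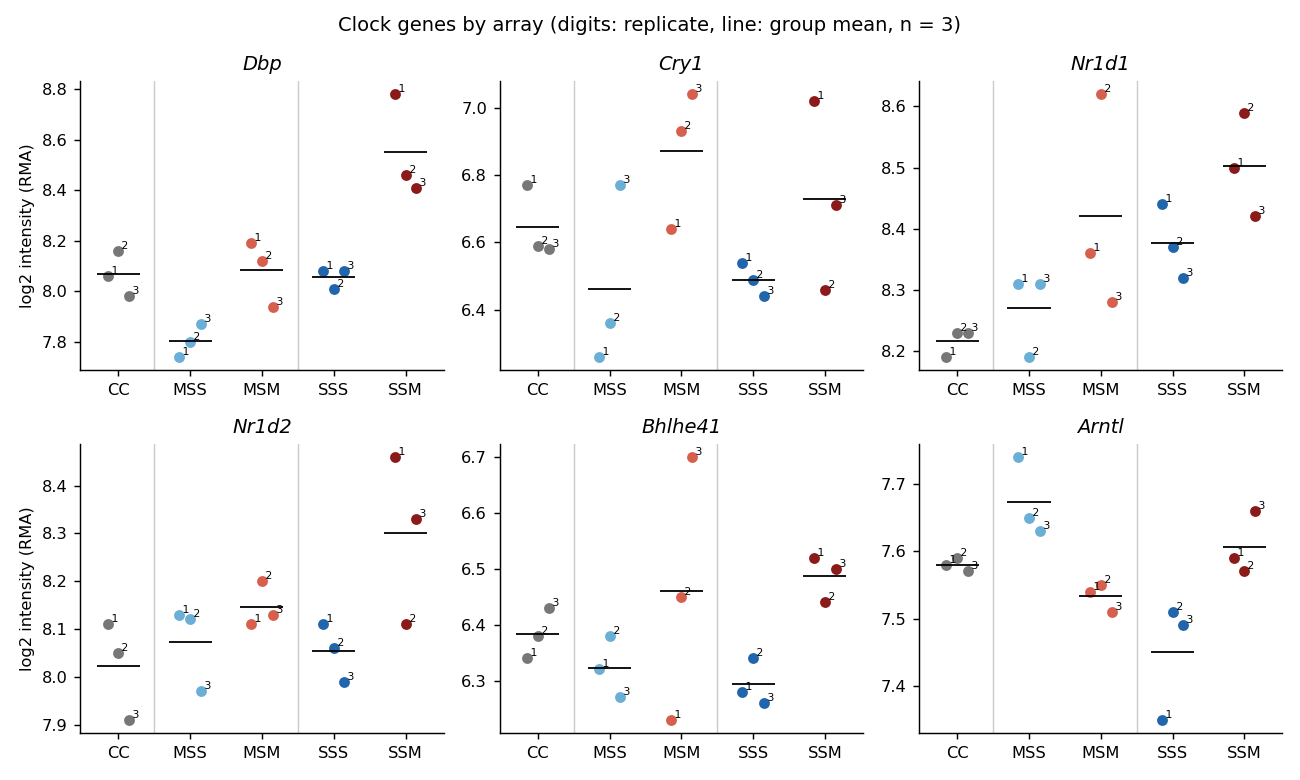
Log2 intensity of Dbp, Cry1, Nr1d1, Nr1d2, Bhlhe41 and Arntl on each of the 15 arrays, with a dot per array, a digit for its replicate and a line at the group mean (n = 3). Dbp is higher with morphine on every array at each stress level (8.41 to 8.78 in SSM against 8.01 to 8.08 in SSS), and Arntl is lower under mild and, on the deposited scale, higher under severe stress.

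The receptor that morphine binds was dim, and its averaged difference was small. Oprm1 was 4.96, 4.90 and 4.87 in MSS and 4.83, 4.88 and 4.89 in MSM, and 4.78, 4.85 and 4.77 in SSS against 5.07, 4.90 and 5.08 in SSM. The groups overlapped under mild stress. Under severe stress all SSM arrays lay above all SSS arrays, also after quantile normalization and after median centring. On the deposited scale 11.7% of all genes were separate in this direction under severe stress. The averaged difference of Oprm1 was 0.089 (SE 0.049, adjusted p 0.666, limma). Oprl1, the nociceptin receptor, was higher by 0.21 (SE 0.091), with all SSM arrays (8.57, 8.46 and 8.52) above all SSS arrays (8.35, 8.19 and 8.35). Under mild stress its highest value was 8.89 on MSM replicate 3, and the difference without that array and SSM replicate 1 was 0.088. Oprk1, the kappa receptor, was 6.15 on SSM replicate 1 and 4.30 to 5.06 on the other 11 arrays, which gave 0.43 (SE 0.24) averaged and 0.049 without those arrays. Oprd1, the delta receptor, was at -0.012 (SE 0.076), a value whose sign differed between alternatives.

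Among the opioid peptides, Penk, the precursor of the enkephalins, was among the 6 highest differences of the named genes at 1.25 (SE 0.64, adjusted p 0.654). It was 7.18, 6.92 and 8.09 in MSS and 7.45, 9.30 and 8.27 in MSM, and 7.02, 7.17 and 7.42 in SSS against 11.40, 7.38 and 7.51 in SSM. The value rested on SSM replicate 1 and MSM replicate 2, and the untreated pups reached 10.08 on replicate 1. The striatum markers, of which Penk is itself one, were highest on the same arrays, with mean levels of 8.95, 7.56 and 7.93 against 6.68 to 7.08 on the others. Without SSM replicate 1 and MSM replicate 3, and with MSM replicate 2 kept, the difference of Penk was 0.61. Pdyn, the dynorphin precursor, was at 0.20 (SE 0.16) and reached 7.71 on SSM replicate 1. Pnoc, the nociceptin precursor, was at 0.12 (SE 0.093) and Pomc, the endorphin precursor, at -0.0042 (SE 0.057), whose sign also differed. In all, 6 of 8 opioid receptors and peptides were higher, with a median of 0.16, which became 0.069 without those arrays. In the wider list of opioid signalling genes 11 of 22 were higher, with a median of 0.0031. At an unadjusted p under 0.05 (limma), 1 was higher and 1 was lower, against 7.04% and 0.597% of all genes. The former was Prkar2b, a regulatory subunit of protein kinase A, at 0.32 (SE 0.12).

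Genes whose 3 morphine arrays lay beyond the 3 saline arrays at both stress levels numbered 138 (0.692%) with morphine higher and 5 (0.0251%) with morphine lower. The counts were 67 (0.336%) and 82 (0.411%) after quantile normalization and 39 (0.196%) and 82 (0.411%) after median centring. Of the 138 genes, 26 were separate under all 3 scales, and of the 5 genes, 4 were. Npy, a neuropeptide of hippocampal interneurons, had the largest difference among the named genes with a mean of at least 6 that were separate. It was 8.79, 8.90 and 9.13 in MSS and 9.17, 9.21 and 9.36 in MSM, and 8.81, 9.02 and 9.08 in SSS against 9.86, 9.22 and 9.46 in SSM. The averaged difference was 0.42 (SE 0.11, adjusted p 0.649), with a range of 0.34 to 0.50 when each array was left out. The separation of Npy held after median centring and not after quantile normalization. The untreated pups spanned 8.94 to 9.54 and so overlapped morphine and saline arrays alike. Ciao2a, of the cytosolic iron-sulfur assembly machinery, was 7.57, 7.58 and 7.58 in MSS and 7.80, 7.65 and 7.93 in MSM, with 7.51, 7.61 and 7.61 in SSS and 7.88, 7.70 and 8.14 in SSM. It was higher by 0.27 (SE 0.066) and separate under all 3 scales. Pold3, a subunit of DNA polymerase delta, was higher by 0.26 (SE 0.061) and separate on the deposited scale and after median centring. Hmgb3 (0.28, SE 0.094), Pou3f4 (0.31, SE 0.16), Cpne5 (0.30, SE 0.15) and Ube2cbp (0.25, SE 0.10) were separate on the deposited scale alone. In each of these 4 genes the highest value of the comparison was on SSM replicate 1 or MSM replicate 3. Without those arrays their differences were 0.11, 0.14, 0.089 and 0.092.

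The other genes with the smallest p among the higher ones had small differences with a narrow spread. Commd6, of the COMMD family of endosomal sorting, was 7.55, 7.55 and 7.67 in MSS and 7.71, 7.61 and 7.73 in MSM, with 7.53, 7.50 and 7.44 in SSS and 7.80, 7.78 and 7.90 in SSM. Its averaged difference of 0.21 (SE 0.044) came mainly from severe stress (0.34, against 0.091). Ndfip2, an adaptor of NEDD4 ubiquitin ligases, was 9.14, 9.22 and 9.20 in MSS and 9.36, 9.39 and 9.35 in MSM, with 9.32, 9.26 and 9.24 in SSS and 9.46, 9.40 and 9.45 in SSM. It was separate at both levels with 0.18 and 0.16, also after quantile normalization but not after median centring. Ppat, the enzyme of the committed step of purine synthesis, was 7.47, 7.48 and 7.42 against 7.60, 7.68 and 7.64 under mild stress. Under severe stress it was 7.60, 7.45 and 7.51 against 7.73, 7.73 and 7.88. The averaged difference was 0.22 (SE 0.049), and it was separate under all 3 scales. Azin2, a regulator of polyamine synthesis, was higher by 0.18 (SE 0.040). The other 7 of these genes were Ascc1, Uxt, Larp6, Arl2, Atmin, Ndufb5 and Avpi1. All 11 had an adjusted p of 0.649.

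On the lower side the named genes that were separate at both levels were few. Clasp1, a protein that stabilises microtubule plus ends, was 9.02 on each MSS array and 8.94, 8.87 and 8.92 in MSM, with 8.96, 9.00 and 8.93 in SSS and 8.72, 8.90 and 8.84 in SSM. It was lower by 0.13 (-0.13, SE 0.038). Mast2, a microtubule-associated kinase, differed by -0.16 (SE 0.058) and Smarcc2, a subunit of the BAF chromatin remodelling complex, by -0.084 (SE 0.036). Clasp1, Mast2 and Smarcc2 were separate under all 3 scales. Chd5, a neuronal chromatin remodeller, at -0.21 (SE 0.068), and Bcl9, a coactivator of beta-catenin, at -0.18 (SE 0.056), had small p-values but overlapping arrays under mild stress. Gh, growth hormone, differed by -0.52 (SE 0.18). Its level was 5.59, 6.37 and 4.81 in SSS, 4.55, 4.62 and 5.02 in SSM and 4.76 to 5.19 in the mild stress groups, so that 2 of the SSS arrays stood above all other stressed pups.

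Several of the largest differences of all genes were in markers of choroid plexus and striatum. Ttr, the thyroid hormone carrier secreted by the choroid plexus, had the largest at 2.02 (SE 0.72). It was 9.17, 8.99 and 8.87 on MSS replicates 1 and 2 and SSS replicate 2 and 12.71 to 13.24 on the other 9 arrays of the comparison. Without those 3 saline arrays its difference was -0.0066. Clic6, a chloride channel protein of that epithelium, was at 1.31 (SE 0.49), and at 0.014 without them. All 15 measured choroid plexus genes were higher with morphine, 7 of them at an unadjusted p under 0.05, with a median of 0.65, against 67.3%, 7.04% and 0.027 for all genes. The 3 saline arrays were singled out by the low level of these same genes, so the values without them follow from that choice and are no separate evidence. By group, the mean level of the 15 genes ran from 5.53 to 6.94 in MSS, 6.76 to 7.26 in MSM, 5.48 to 7.51 in SSS and 6.66 to 7.38 in SSM.

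The 13 striatum genes were all higher with morphine, with a median of 0.57, and 12 of them were highest on SSM replicate 1. Drd2, the D2 dopamine receptor, was 8.40 there and 5.05 to 6.25 on the other arrays of the comparison, which gave 0.82 (SE 0.45). The median of the list was 0.21 without SSM replicate 1 and MSM replicate 3, arrays known to be high in striatum and in thalamus markers, respectively. Of the 13 thalamus genes 12 were higher, with a median of 0.25, and 11 were highest on MSM replicate 3. Their median was 0.074 without those arrays. Most striatum and thalamus genes were highest on an array that was left out. The lower medians of these lists therefore follow in part from that choice and are no separate evidence. MSM replicate 2, which was kept in these values, had the next highest striatum level of the comparison at 7.56. MSM replicate 3 and MSS replicate 3 were both at 7.08, and the 3 SSS arrays had 6.73 to 6.76.

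The myelin genes showed the same arrays beside a smaller remainder. Of 17 measured, 16 were higher with morphine and 7 at an unadjusted p under 0.05, against 67.3% and 7.04% of all genes, with a median of 0.32 (0.13 without SSM replicate 1 and MSM replicate 3). Their mean level was 7.27 on SSM replicate 1, 7.14 on MSM replicate 3 and 6.20 to 6.72 on the other 10 arrays of the comparison. Mag, a myelin adhesion protein, was 5.73, 6.13 and 7.27 in MSS and 6.61, 7.68 and 8.19 in MSM, with 5.78, 6.00 and 5.89 in SSS and 8.45, 6.07 and 6.05 in SSM. It differed by 1.04 (SE 0.43) averaged and 0.47 without those arrays. Tspan2, a tetraspanin of oligodendrocytes, at 0.41 (SE 0.12), and Trf, the iron carrier transferrin, at 0.32 (SE 0.091), had the smallest p of the list. For Trf the difference was 0.27 without those arrays and 0.15 with the choroid plexus covariate, and transferrin is also made by the choroid plexus. Of the 13 genes of oligodendrocyte precursors, 10 were higher, with a median of 0.16, which became 0.007 without those arrays. White matter adjoins the hippocampus, and its share in each sample was not measured apart from these markers.

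Genes of glutamatergic neurons were lower in 12 of 14 cases, with a median of -0.23, none at an unadjusted p under 0.05, against 0.597% of all genes that were lower at that level. Neurod6, a transcription factor of pyramidal neurons, was 7.36 on MSM replicate 3 and 8.69 on SSM replicate 1, against 9.17 to 9.62 on the other 10 arrays of the comparison. It differed by -0.47 (SE 0.27). Prox1, the marker of dentate granule cells, differed by -0.35 (SE 0.18). The 5 neuron markers that set MSM replicate 3 and SSM replicate 1 apart belong to this list, so its median without these arrays is no test of it and is not given.

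**Figure D3:**
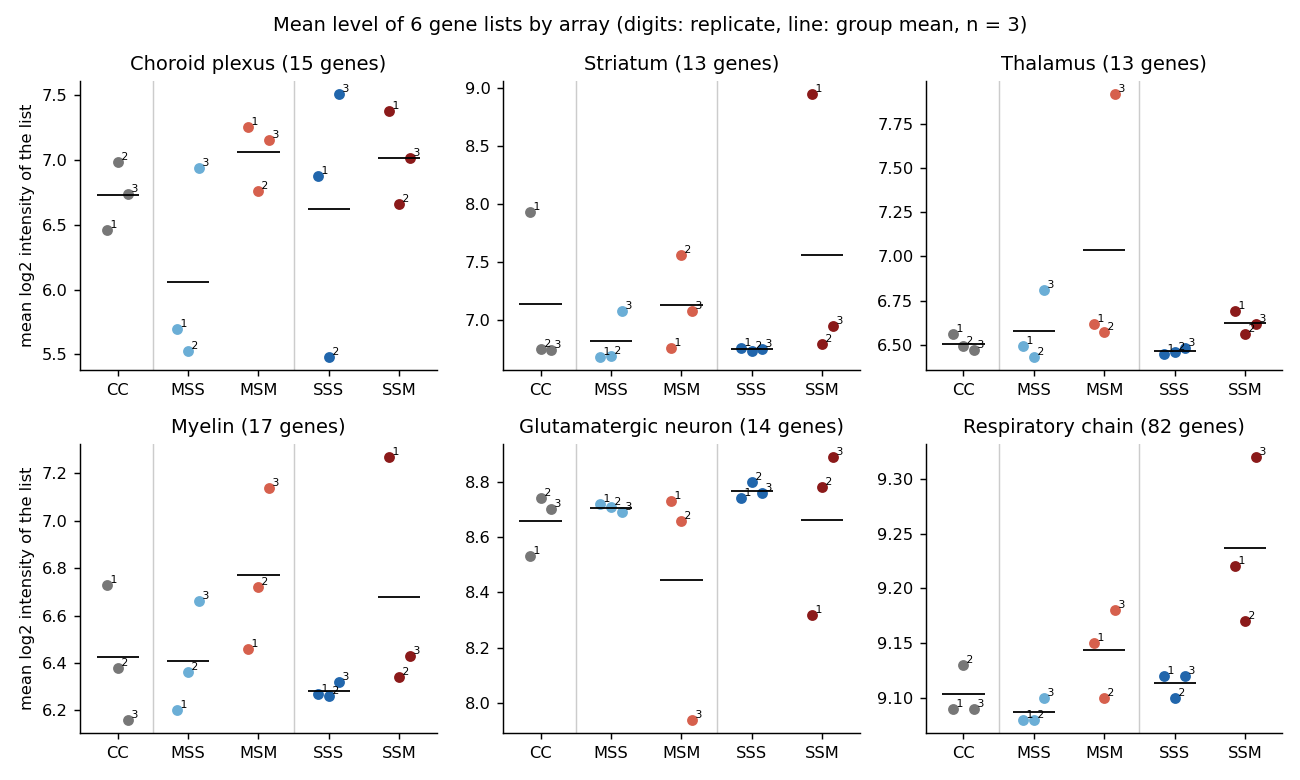
Mean log2 intensity of 6 gene lists on each of the 15 arrays, with a dot per array, a digit for its replicate and a line at the group mean (n = 3). Choroid plexus genes are low on MSS replicates 1 and 2 and SSS replicate 2, striatum genes are highest on SSM replicate 1 (8.95), and thalamus genes are highest (7.92) and glutamatergic genes lowest (7.94) on MSM replicate 3.

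Inhibitory neuron genes were split. Of 16 interneuron genes 11 were higher, a share close to the 67.3% of all genes, with a median of 0.10 (0.087 without SSM replicate 1 and MSM replicate 3). Under mild stress 8 of 16 were higher with a median of -0.021, and under severe stress 13 of 16 with 0.24, against 50.1% and 74% of all genes. At an unadjusted p under 0.05, 3 were higher and 1 was lower, against 7.04% and 0.597% of all genes. Besides Npy, the higher ones were Gad1, the main GABA-synthesising enzyme, at 0.29 (SE 0.13), and Slc32a1, the vesicular GABA transporter, at 0.46 (SE 0.21). Slc32a1 was highest on SSM replicate 1, was 9.33 on MSM replicate 3 and was at most 8.80 on the other arrays of the comparison. Without those arrays Gad1 was at 0.085 and Slc32a1 at 0.13. GABA neurons fill the striatum, whose markers were highest on the first of these arrays. Reln, the extracellular protein reelin of Cajal-Retzius cells and interneurons, was the lower one at -0.29 (SE 0.11). It was 9.50, 9.34 and 9.32 in MSS and 9.52, 9.41 and 8.96 in MSM, with 9.58, 9.50 and 9.37 in SSS and 8.70, 9.26 and 9.02 in SSM. All SSM arrays lay below all SSS arrays, as in 1.15% of all genes, and the mild groups overlapped. Without SSM replicate 1 and MSM replicate 3 it was at -0.14.

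Immediate early genes, which neuronal activity induces, had 15 of 21 members lower with morphine, 2 of them at an unadjusted p under 0.05 (0.597% of all genes), and a median of -0.086. The median was -0.14 under mild stress, with 3 of 21 higher, and -0.0013 under severe stress, with 10 of 21 higher, against 50.1% and 74% of all genes. The 2 genes were Dusp6, a phosphatase of ERK, at -0.22 (SE 0.092), and Nr4a3, an orphan nuclear receptor, at -0.42 (SE 0.19). Nr4a2, its relative, had the lowest difference of all genes at -0.59 (SE 0.36). Nr4a2 was 6.61 on MSM replicate 3 and 6.70 on SSM replicate 1 against 7.90 to 8.90 on the other 10 arrays of the comparison. Of the 21 genes, 14 were lowest on MSM replicate 3. Without both arrays the median was -0.0054, and Dusp6, Nr4a3 and Nr4a2 were at -0.12, -0.083 and -0.016. Of the 19 genes for synapses and vesicle release 15 were lower, with a median of -0.055, and -0.0063 without both arrays. Shank1, a scaffold of the postsynaptic density, had the smallest p among them at -0.19 (SE 0.074). Glutamate and GABA receptor genes were split, with 9 of 19 higher and a median of -0.0017. At an unadjusted p under 0.05 (limma), 1 of them was higher and 1 was lower, against 7.04% and 0.597% of all genes. The higher one was Gabra4, the alpha 4 subunit of the GABA-A receptor, at 0.25 (SE 0.076).

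Stress hormone targets differed little in the average. Of 18 genes of the glucocorticoid response 13 were higher, with a median of 0.046, against 67.3% and 0.027 for all genes. Under mild stress 7 of 18 were higher (median -0.035), against 50.1% of all genes. Under severe stress 15 of 18 were higher (median 0.091), against 74%. The averaged median was 0.0049 after quantile normalization. In the average 1 gene was higher at an unadjusted p under 0.05 (limma), against 7.04% of all genes. That was Sgk1, a kinase that glucocorticoids induce, at 0.15 (SE 0.056), whose levels ran from 7.86 to 8.07 in the saline arrays and from 8.04 to 8.26 in the morphine arrays. Its difference was 0.078 without the 3 saline arrays of low choroid plexus level. Of 18 genes that respond to unfolded proteins or amino acid shortage 16 were higher, 3 at an unadjusted p under 0.05, against 67.3% and 7.04% of all genes, with a median of 0.064. These were Sesn2, a stress-induced regulator of mTORC1, at 0.22 (SE 0.054), Dnajb9, an endoplasmic reticulum chaperone, at 0.22 (SE 0.070) and Psat1, an enzyme of serine synthesis, at 0.15 (SE 0.051). Sesn2 was 6.39, 6.22 and 6.42 in MSS and 6.56, 6.56 and 6.69 in MSM, with 6.36, 6.18 and 6.27 in SSS and 6.37, 6.49 and 6.46 in SSM. It was separate at both levels on the deposited scale, by a narrow margin under severe stress, and no longer after quantile normalization or median centring. The median of this list was 0.029 after quantile normalization.

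Proliferation genes had small differences, mostly above 0. Of 20 cell cycle genes 18 were higher at each stress level, against 50.1% of all genes under mild and 74% under severe stress. In the average 4 were at an unadjusted p under 0.05 (7.04% of all genes were higher at that level), with a median of 0.094 (0.062 without SSM replicate 1 and MSM replicate 3, 0.045 with the choroid plexus covariate). Aurkb, a mitotic kinase, was at 0.18 (SE 0.063), Ccna2, cyclin A2, at 0.14 (SE 0.057) and Pcna, the sliding clamp of replication, at 0.11 (SE 0.043). Of the 20 genes, 10 were highest on SSM replicate 1. Immature neuron genes had 4 of 15 higher with a median of -0.053, and 0.0037 without SSM replicate 1 and MSM replicate 3.

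Of the other cell types, microglia genes were higher in 14 of 16 cases with a median of 0.062, from 6 of 16 under mild and 16 of 16 under severe stress, against 50.1% and 74% of all genes, and 9 of the 16 were highest on SSM replicate 1. Ctss, a microglial protease, was at 0.21 (SE 0.11). In the average 67.3% of all genes were higher, and 7.04% were higher at an unadjusted p under 0.05 (limma). Astrocyte genes had a median of 0.032 with 9 of 14 higher. Endothelial and pericyte genes had -0.033 with 5 of 15 higher, 2 of them at an unadjusted p under 0.05. These were Slc2a1, the glucose transporter of the blood-brain barrier, at 0.18 (SE 0.063) and Pecam1, an adhesion molecule, at 0.12 (SE 0.049). Ependyma and cilia genes had a larger median, 0.13, with 10 of 11 higher, and 9 of the 11 were highest on SSM replicate 1. Dopamine, serotonin and noradrenaline genes were higher in 13 of 14 cases with a median of 0.10. The list holds Drd2 and Htr2c, the serotonin 2C receptor that the choroid plexus expresses strongly. Htr2c was at 0.36 (SE 0.18), and at 0.045 with the choroid plexus covariate. Meninges and fibroblast genes had a median of -0.031, blood genes 0.045 and RNAs retained in the nucleus 0.017. The medians of cholesterol synthesis, inflammation and apoptosis genes were -0.034, 0.016 and 0.026.

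**Figure D4:**
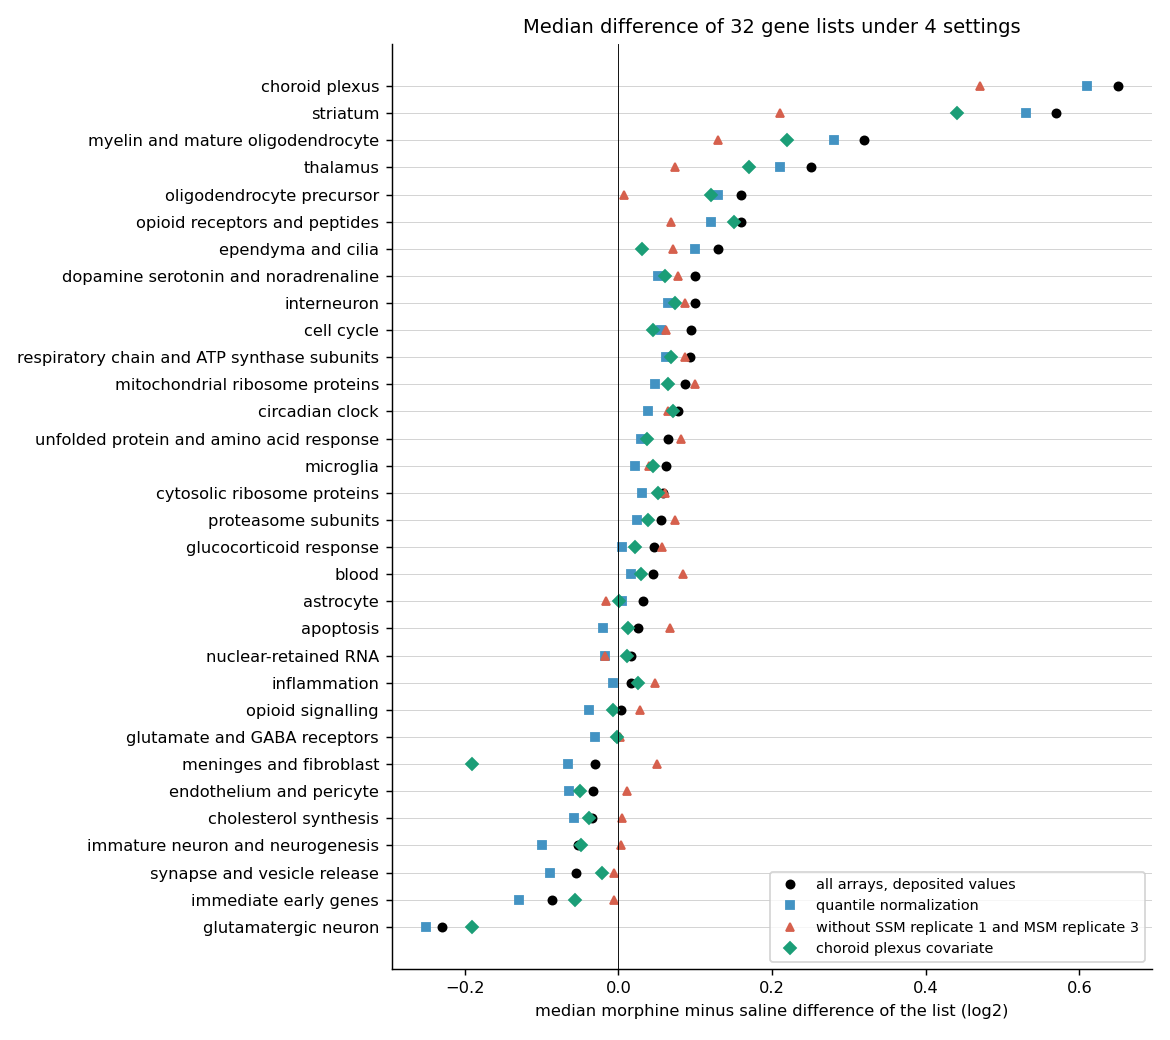
Median morphine minus saline difference (log2) of 32 gene lists under 4 settings: the deposited values with all arrays, quantile normalization, without SSM replicate 1 and MSM replicate 3, and with the mean choroid plexus level as a covariate. The choroid plexus point with its own covariate and the glutamatergic point without the arrays its markers set apart are left out, being fixed by construction. For the striatum and thalamus lists, leaving out SSM replicate 1 and MSM replicate 3 removes the arrays where they are highest. The myelin median is 0.32 with all arrays and 0.13 without SSM replicate 1 and MSM replicate 3, and the respiratory chain median is 0.093 and 0.087.

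Nuclear genes for the respiratory chain were higher in nearly all cases, by small amounts. This list and those of the mitochondrial ribosome, the proteasome and the cytosolic ribosome were assembled by gene symbol after the values had been seen, so their counts are a description only. Of 82 subunits of the respiratory chain and ATP synthase, 78 were higher, 33 of them at an unadjusted p under 0.05, and 7 were separate at both levels, against 67.3%, 7.04% and 0.692% of all genes. The median was 0.093, with 70 of 82 higher under mild and 80 of 82 under severe stress, against 50.1% and 74% of all genes, and 54 of the 82 were highest on SSM replicate 3. It was 0.062 with 71 of 82 higher after quantile normalization, 0.071 with 72 of 82 without SSM replicate 3, 0.087 without SSM replicate 1 and MSM replicate 3, and 0.068 with the choroid plexus covariate. Ndufb5, of complex I, was 9.49, 9.62 and 9.68 in MSS and 9.77, 9.72 and 9.87 in MSM, with 9.77, 9.74 and 9.80 in SSS and 10.04, 9.89 and 9.97 in SSM. It was higher by 0.19 (SE 0.045) and separate at both levels under all 3 scales, and the SSS and MSM arrays overlapped. Ndufs5, also of complex I, was higher by 0.22 (SE 0.057), Cox5a, of complex IV, by 0.16 (SE 0.040) and Ndufab1, the mitochondrial acyl carrier protein, by 0.13 (SE 0.037).

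The mean level of the 82 genes was 9.08 to 9.10 in MSS and 9.10 to 9.18 in MSM, and 9.10 to 9.12 in SSS and 9.17 to 9.32 in SSM, where replicate 3 was the highest. The untreated pups were at 9.09 to 9.13. Mitochondrial ribosome genes were higher in 72 of 77 cases with a median of 0.087, and Mrps27 had the smallest p of them at 0.21 (SE 0.050). The proteasome had 35 of 39 and 0.056, and the cytosolic ribosome 47 of 52 and 0.058, against 67.3% and 0.027 for all genes. The medians were larger under severe stress, a difference between lists' medians that was not tested. Mitochondrial ribosome genes were higher in 51 of 77 cases under mild stress (median 0.03) and 72 of 77 under severe stress (0.14). Proteasome genes were higher in 22 of 39 (0.0094) and 37 of 39 (0.10), and cytosolic ribosome genes in 37 of 52 (0.04) and 49 of 52 (0.072). All genes were above 0 in 50.1% of cases under mild and 74% under severe stress. SSM replicate 3, the array with the raised median, held the highest value of 56 of 77, 32 of 39 and 27 of 52 of these genes. After quantile normalization these medians were 0.048, 0.024 and 0.031.

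The differences at the stress levels, which share no array, were set against each other across genes. Over the 10590 genes with a mean of at least 6, the mild and severe differences correlated at 0.372 (Pearson) and 0.266 (Spearman), and 58.8% had the same sign. These are values across genes of the same arrays, which are not independent replicates. Without SSM replicate 1 and MSM replicate 3 the values were 0.0169, 0.0137 and 56.8%, so the correlations fell while the share of the same sign moved little. That share also rises when most genes shift in the same direction, so it does not show agreement gene by gene. The averaged median difference of all genes in that setting was 0.045. With the choroid plexus covariate the correlations and the share were 0.121, 0.0636 and 50.6%, and after quantile normalization 0.37, 0.264 and 58.5%. Without those arrays Ttr was at 1.93 and Mag at 0.47.

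**Figure D5:**
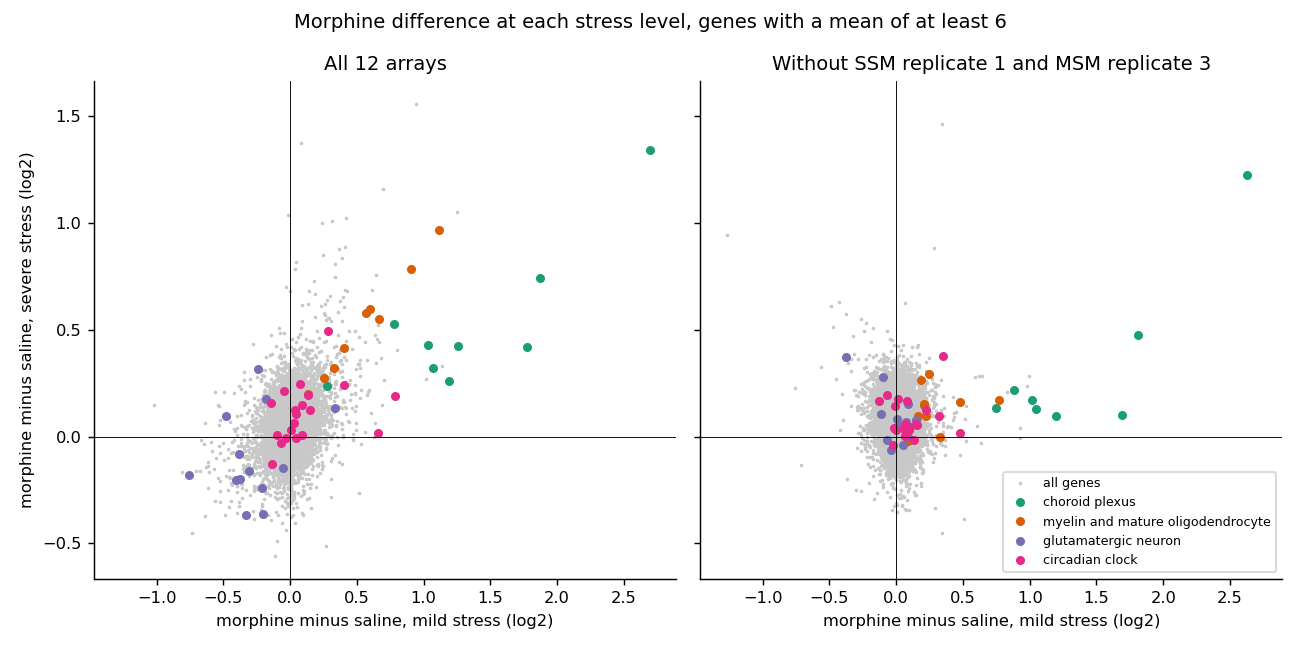
Morphine minus saline difference (log2) under mild stress (horizontal) and severe stress (vertical) for the 10590 genes with a mean of at least 6, with all arrays on the left and without SSM replicate 1 and MSM replicate 3 on the right; coloured points are the genes of the lists named in the legend. The Pearson correlation across genes is 0.372 on the left and 0.0169 on the right, and the share of genes with the same sign is 58.8% and 56.8%.

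The test of whether the morphine difference itself differed between mild and severe stress called 0 of 19938 genes (limma, smallest adjusted p 0.959), with 727 (3.65%) at an unadjusted p under 0.05, 650 of them (3.26%) with the higher difference under severe stress and 77 (0.386%) with the lower. The severe difference was the higher one in 69.5% of genes. Dbp, Npy, Ndfip2 and Ppat had unadjusted p-values of 0.123, 0.315, 0.792 and 0.432 in this test. Commd6 had 0.0145, Rorb 0.0336 and Oprm1 0.0184.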

How the data were processed

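Total RNA of the right hippocampus was read on 15 single-colour arrays, 3 per group. The authors deposited log2 intensities in a table of the whole series, made with RMA (background correction, quantile normalization and probe summary) per the submitters' processing notes; the sources used here do not give its software. The values were used as deposited. Of 35557 probe sets, the platform annotation names 21789 with 1 symbol and 1621 with several, and 12147 are unnamed here; the brightest single-symbol probe set of a gene was kept, which left 19938 genes. No table column was left unused (0).

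Groups came from the treatment label. Genes were fitted with limma 3.58.1 in R 4.3.3 (a mean per group on all 15 arrays, eBayes, 10 residual and 4.61 prior degrees of freedom), with the contrast 0.5(MSM-MSS)+0.5(SSM-SSS), two-sided, and Benjamini-Hochberg adjustment at 0.05. The fit was tested on simulated data. The number of arrays limits the precision.

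The comparison, the 28 gene lists (463 entries, 418 measured) and the rules were chosen with earlier results of these data known; 4 further lists (respiratory chain, mitochondrial ribosome, proteasome and cytosolic ribosome) were added after the values were seen. Named were the 12 genes of smallest p in each direction, up to 8 in each direction with separate arrays and a mean of at least 6, the 6 highest and 6 lowest differences, up to 4 members of each list by smallest p and all clock and opioid genes; the text gives values for a part of them. Predicted genes, clones, receptors of smell and taste, small RNAs and sex-linked genes of the Y chromosome or Xist were passed over. Genes given as marking an array (Drd2, Mag, Ttr) also fall under this rule. Promoters came from RefSeq (GRCm38.p6). Alternatives covered scaling, a filter at a mean of 6, the probe set rule, the arrays in the fit, array weights and the variance prior. They also covered the SS number in the titles as a random block, choroid plexus level as a covariate, and arrays left out.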

Additional observations from a re-analysis of the deposited data

Results flagged for a closer look

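Arntl, which codes for the clock activator BMAL1, had morphine differences of opposite sign at the stress levels: every MSM array lay below every MSS array and every SSM array lay above every SSS array. The separation under severe stress was lost after quantile normalization and after median centring. The difference under severe stress minus that under mild stress was 0.30 (SE 0.079), with an unadjusted p of 0.00203 and an adjusted p of 0.959 (limma), which does not pass the threshold. Under mild stress its level was 7.67 ± 0.055 (SD, n = 3) with saline and 7.53 ± 0.023 with morphine. Under severe stress it was 7.45 ± 0.084 and 7.60 ± 0.048. Untreated pups were at 7.58 ± 0.011. Separation of this kind, lower under mild and higher under severe stress, was seen in 48 genes (0.241%).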

How the results depend on the processing

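No paired analysis was possible because at each stress level the morphine and saline arrays share no first number in their titles (after the letter H) and only 1 value of the number after the letters SS, 11 under mild and 8 under severe stress. The latter number was fitted as a random block instead. With 3 arrays per group, differences below the size of a few SE (median 0.057) could not be separated from the spread. At the adjusted threshold larger ones did not pass either, such as Dbp at 0.39 (SE 0.065, adjusted p 0.548, limma). None of the 25 alternatives gave a gene past the threshold in the averaged comparison, nor did any of 16 in the severe and interaction comparisons (0 to 0 when each array was left out). The mild comparison gave 0 to 1, the latter being Rorb without MSM replicate 1. Leaving out each array in turn gave 856 to 2285 genes higher and 46 to 585 lower at an unadjusted p under 0.05, a median difference of -0.00086 to 0.042, and 142 to 387 genes separate toward higher and 8 to 81 toward lower values; fewer arrays separate more easily. Genes higher at an unadjusted p under 0.05 numbered 644 with quantile normalization, 443 with median centring, 459 with the choroid plexus covariate, 329 with it on quantile-normalized values, 431 without MSS replicates 1 and 2 and SSS replicate 2, and 442 without SSM replicates 1 and 3 and MSM replicate 3. The lower ones numbered 783, 937, 42, 316, 66 and 298 in that order, 401 with array weights, 72 among genes with a mean of at least 6 and 41 without SSM replicate 1 and MSM replicate 3. The median difference was -0.015 after median centring. Separate genes toward higher values were 67 with quantile normalization, 39 with centring, 748 without the 3 saline arrays, 541 without SSM replicate 1 and MSM replicate 3 and 578 with SSM replicate 3 left out too; toward lower values they were 82, 82, 67, 13 and 299, and 3 with a mean of at least 6. Of 69 named genes, 64 kept their sign in every alternative and 5 did not. Arntl was -0.0059 with the covariate on quantile-normalized values, -0.036 with centring, -0.035 with quantile normalization, -0.0053 without SSM replicates 1 and 3 and MSM replicate 3, and -0.017 to 0.022 when each array was left out. Oprk1 was -0.02 without those 3 arrays. Oprd1 was 0.036 with the covariate, 9.69e-05 with it on quantile-normalized values and -0.07 to 0.035 with each array left out. Pomc was 0.078, 0.044 and -0.037 to 0.034 in the same order, and 0.072 without the 3 saline arrays, where Ttr was -0.0066. The SS number in the titles as a random block (consensus correlation 0.065) gave a smallest adjusted p of 0.472 (limma). The cause of these changes was not tested.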
